A study of Mus musculus with 2 samples.

Results

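The mir-26 family of the mouse consists of 3 microRNA (miRNA) genes, Mir26a-1, Mir26a-2 and Mir26b, each in an intron of a gene for a small C-terminal domain phosphatase of the Ctdsp group. They were taken by name from the GENCODE M21 annotation, and all 3 were among the 2202 miRNA genes counted. Small RNA was sequenced from the gastrocnemius, a calf muscle, of female B6CASTF1/J mice at the age of 4 days, and the labels name no treatment. The B6CASTF1/J mouse is a cross between the inbred strain C57BL/6J and the wild-derived strain CAST/EiJ. There was 1 group of 2 libraries, library 2 from the animal numbered female 4 and library 1 from female 3. The labels give both animals the same donor identifier, so the spread between the libraries may be partly technical. No second condition was present, and the comparisons below are between family members and between the 2 libraries.

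MiRNAs are cut from a hairpin RNA into a 5p and a 3p arm of about the same length. The loaded arm guides Argonaute proteins to messenger RNAs that pair with its seed, the run of bases 2 to 8. The mir-26 miRNAs are broadly expressed, rise as many cell types leave the cell cycle, and are known in muscle for repressing the Polycomb methyltransferase Ezh2 during differentiation of mouse myoblasts. Their host phosphatases help to silence neuronal genes outside the nervous system, and in zebrafish miR-26b represses its own host transcript ctdsp2.

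The mature sequences are shown first because they decide which reads can be told apart between the members. They were taken from RefSeq with the build GRCm38.p6, where all 3 members were matched, and are written 5′ to 3′ with the seed in capitals.
mmu-miR-26b-5p: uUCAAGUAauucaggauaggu
mmu-miR-26a-5p, from both Mir26a-1 and Mir26a-2: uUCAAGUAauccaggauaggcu
mmu-miR-26b-3p: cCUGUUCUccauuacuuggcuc
mmu-miR-26a-2-3p: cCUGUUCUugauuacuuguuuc
mmu-miR-26a-1-3p: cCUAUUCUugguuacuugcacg
The 5p seed UCAAGUA was identical in all 3 members, and no other mature miRNA in the RefSeq table carried it. With positions counted from 1 at the 5′ end and the base of miR-26a given first, miR-26b-5p differed from miR-26a-5p by C11U and C21U and ended 1 base earlier. The 5p arms of Mir26a-1 and Mir26a-2 were identical over all 22 bases, whereas their 3p arms differed at 6 of 22 bases. The 3p arms of Mir26a-2 and Mir26b differed at 4 of 22 bases and shared the seed CUGUUCU, while the 3p seed of Mir26a-1 was CUAUUCU.

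The annotated hairpins are given with both mature arms in capitals, to show how far the identity of the 2 Mir26a genes reaches beyond the mature arm.
Mir26b hairpin: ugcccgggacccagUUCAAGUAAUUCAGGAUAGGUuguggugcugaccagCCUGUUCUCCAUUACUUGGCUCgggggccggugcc
Mir26a-2 hairpin: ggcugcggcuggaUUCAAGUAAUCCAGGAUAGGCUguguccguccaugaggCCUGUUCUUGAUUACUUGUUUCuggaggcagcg
Mir26a-1 hairpin: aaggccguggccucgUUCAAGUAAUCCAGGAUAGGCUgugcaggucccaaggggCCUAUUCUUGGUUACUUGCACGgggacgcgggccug
The hairpins were 85 bases long for Mir26b, 84 for Mir26a-2 and 90 for Mir26a-1. Their G and C content was 58.8% in Mir26b, 53.6% in Mir26a-2 and 60% in Mir26a-1. Predicted folding energies from RNAfold were alike, at -43.5 kcal per mol for Mir26b, -44.5 for Mir26a-2 and -49.4 for Mir26a-1. In global alignment, Mir26a-2 and Mir26a-1 were identical at 72.5% of aligned positions, Mir26b and Mir26a-1 at 68.5%, and Mir26b and Mir26a-2 at 66.3%.

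The longest run shared by the Mir26a-2 and Mir26a-1 hairpins had 25 bases, uucaaguaauccaggauaggcugug, which is the whole 5p arm and the 3 bases after it. A read that starts at the first base of miR-26a-5p and ends within that run therefore matches both genes. Of the 22-base windows of each hairpin, 4 of 63 in Mir26a-2 and 4 of 69 in Mir26a-1 were also in another counted hairpin, in each case the other Mir26a gene. All of these windows started within the 5p arm. Of the 64 windows of Mir26b, 0 were in another counted hairpin on either strand, and its longest run in common with a Mir26a gene had 11 bases. Searched against all GENCODE M21 transcripts, the 5p arm of Mir26b and each of the 3p arms matched only their own gene exactly, and miR-26a-5p matched Mir26a-1 and Mir26a-2. The rest of the genome was not searched. The map of 22-base windows shows where the members can be told apart.

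**Figure D1:**
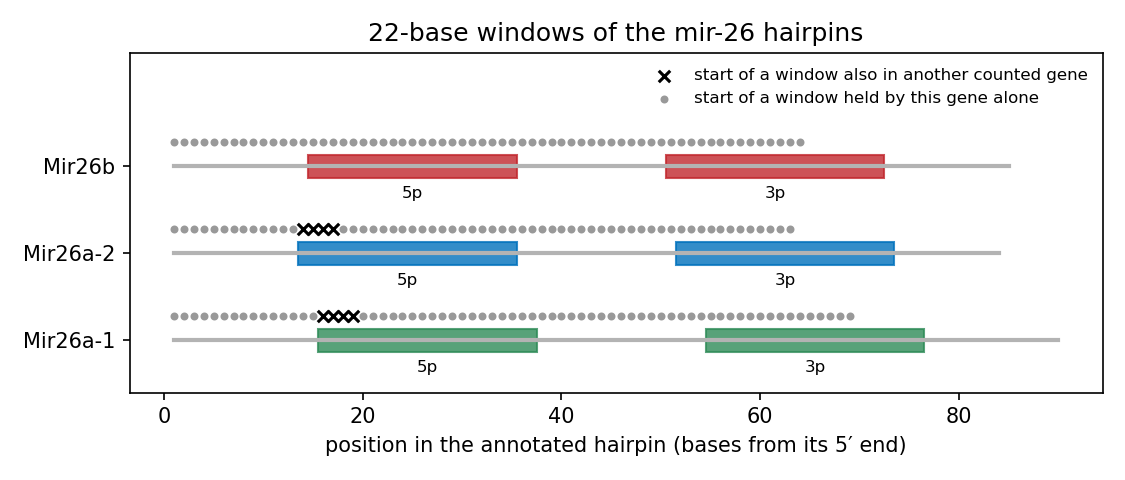
Each line is an annotated hairpin drawn by position in bases from its 5′ end, with coloured boxes for the 5p and 3p mature arms and a mark above it at the start of every 22-base window. Crosses mark windows that another counted hairpin also holds: 4 in Mir26a-2 and 4 in Mir26a-1, all at the 5p arm, and 0 in Mir26b.

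In mm10, Mir26b is annotated at chr1:74394310-74394394 on the plus strand, in intron 4 of Ctdsp1. Mir26a-2 is at chr10:126995530-126995613 on the plus strand, in intron 5 of Ctdsp2. Mir26a-1 is at chr9:119031796-119031885 on the plus strand, in intron 5 of Ctdspl. Introns are numbered in the principal transcript of each host, and each hairpin has the same orientation as its host. The host genes differ in size, with 5777 bases for Ctdsp1, 21259 for Ctdsp2 and 117546 for Ctdspl. The introns that hold the hairpins have 564 bases in Ctdsp1, 1946 in Ctdsp2 and 3283 in Ctdspl. Mir26b began 234 bases after the start of its intron and ended 245 bases before its end. Mir26a-2 ended 241 bases before the next exon, and Mir26a-1 ended 1650 bases before it. The annotated start of 2 shorter Ctdsp2 transcripts, 1 of them protein-coding, fell on the last base of the Mir26a-2 hairpin, so that 1 hairpin base was also exonic. No other counted miRNA gene lay within Ctdsp1 or Ctdspl. Ctdsp2 held 1 further counted gene, Mir546, with 1 count in each library, which is named after its values were seen. The small RNA libraries measured no host messenger RNA.

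**Figure D2:**
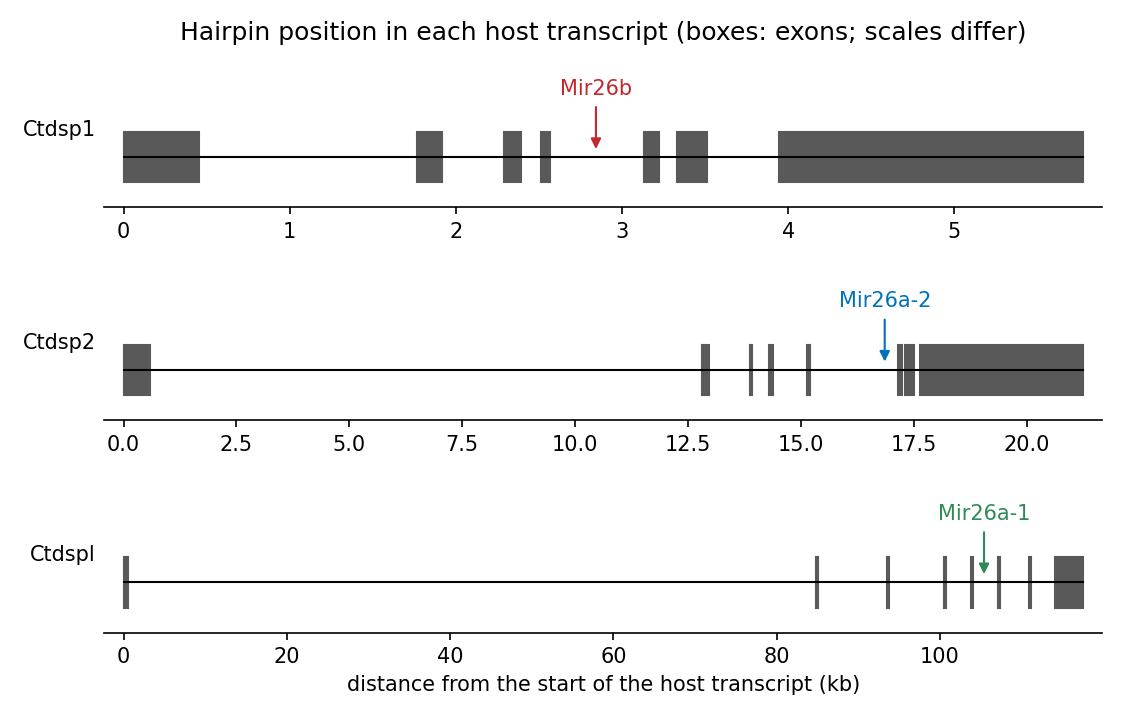
Principal transcripts of Ctdsp1, Ctdsp2 and Ctdspl are drawn from their start, with exons as boxes, introns as lines and the hairpin position as an arrow; the x axis is the distance from the transcript start in kb and its scale differs between panels. Mir26b sits in intron 4 of the 5777-base gene Ctdsp1, and Mir26a-2 and Mir26a-1 sit in intron 5 of the larger genes Ctdsp2 and Ctdspl.

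Library 2 held 8487769 reads, of which 4336759 lay on the annotated strand of a miRNA gene, and library 1 held 10426665 reads, of which 5569392 did. Levels are own-strand CPM (counts scaled to the total of these gene reads), not divided by gene length. Genes that reached 2 CPM in each library were taken as detected, which left 335 of 2202. Reads that matched several places made up 37.6% of library 2 and 36.9% of library 1 and belonged to no gene. The muscle label was checked against 5 skeletal muscle genes, all of which were detected, with a sum of 120675 CPM in library 2 and one of 130974 CPM in library 1, nearly all of it from Mir206. Intervals are exact 95% intervals and cover counting error only.

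Nearly all counted reads of the family came from Mir26b. Library 2 had 44302 counts of Mir26b, or 10215 CPM (10121 to 10311), and library 1 had 67298, or 12084 CPM (11992 to 12175). Its mean of 11149.5 ± 1321 CPM (SD, n = 2) placed it 20th of 2202 genes, at rank 21 in library 2 and rank 19 in library 1. Both libraries thus put it within the same few places of the order.

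For Mir26a-2, library 2 had 919 counts, or 212 CPM (198 to 226), and library 1 had 725, or 130 CPM (121 to 140). Its mean of 171 ± 57.8 CPM (SD, n = 2) ranked 151st, with rank 148 in library 2 and 163 in library 1. The median detected gene was at 123 CPM, so Mir26a-2 lay near the middle of the detected genes.

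For Mir26a-1, library 2 had 24 counts, or 5.53 CPM (3.55 to 8.23), and library 1 had 26, or 4.67 CPM (3.05 to 6.84). It ranked 298th by its mean of 5.10 ± 0.612 CPM (SD, n = 2), and its count intervals in the 2 libraries overlapped over most of their width. It was above the detection level by both counts, and its interval stayed above 2 CPM in both libraries. The order Mir26b, Mir26a-2, Mir26a-1 was the same in both libraries, and no interval of one member reached that of the next.

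**Figure D3:**
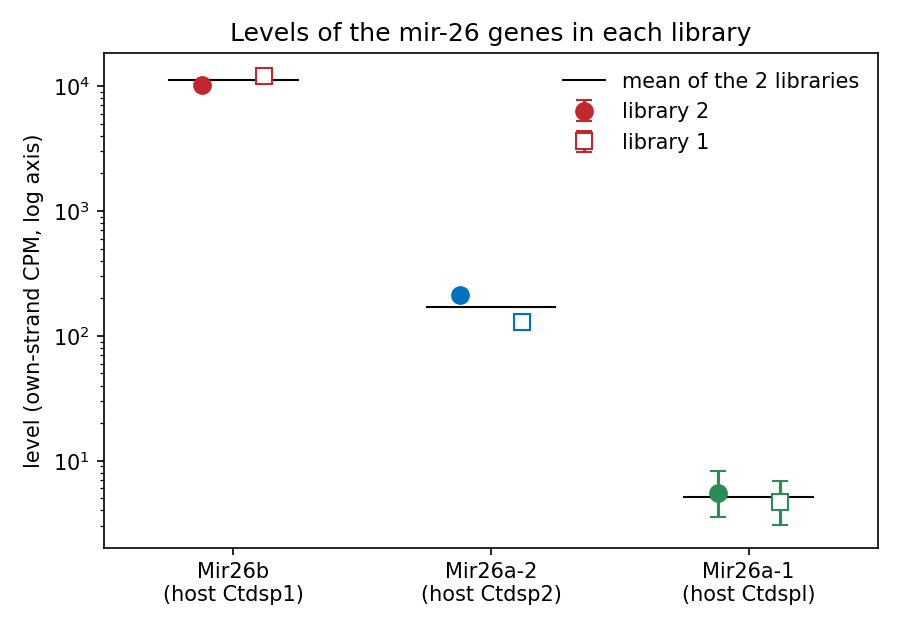
Own-strand CPM of each mir-26 gene on a log axis, with filled circles for library 2, open squares for library 1, exact 95% counting intervals as bars and the mean of the 2 libraries as a black line. Mir26b sits at 10215 to 12084 CPM, Mir26a-2 at 130 to 212 CPM and Mir26a-1 at 4.67 to 5.53 CPM.

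Within a library, the assignable reads of the members can be compared without any scaling. For the Mir26a genes these leave out reads that match both genes, such as full-length miR-26a-5p, whereas Mir26b has no such loss to another counted hairpin. The ratios below are therefore ratios of assignable reads, not of the mature miRNAs. Mir26b exceeded Mir26a-2 48.2-fold (45.2 to 51.5) in library 2 and 92.8-fold in library 1, where the lower bound was 86.3-fold. That bound lay above the whole interval of library 2, so this ratio differed between the libraries by more than counting error. Mir26b exceeded Mir26a-1 1846-fold (1240.4 to 2881) in library 2 and 2588-fold (1766 to 3963) in library 1, with overlapping intervals. Mir26a-2 exceeded Mir26a-1 38.3-fold (25.6 to 60.1) in library 2 and 27.9-fold (18.9 to 43.0) in library 1, also overlapping.

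As a share of the family's counts, Mir26b made up 97.9% in library 2 and 98.9% in library 1. Mir26a-2 made up 2.03% (1.90 to 2.17) in library 2 and 1.07% (0.990 to 1.15) in library 1. Mir26a-1 made up 0.0530% in library 2 and 0.0382% in library 1. The family as a whole held 1.04% of gene reads in library 2 and 1.22% in library 1.

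These shares rest on reads that matched 1 place. The 2 Mir26a genes together had 943 counts in library 2 and 751 in library 1, and neither table says which of their arms the counts came from. The reads matching several places numbered 3380 times the summed Mir26a counts in library 2 and 5117 times in library 1. That line is not divided by gene, so how many miR-26a-5p reads it holds is not known, and its part in the gap between Mir26b and the Mir26a genes was not tested. The Mir26a levels are therefore those of reads that could be assigned to 1 of the 2 genes. Mir26b has no window in common with another counted hairpin.

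Other counted genes with an identical mature arm at a second locus give the background for these levels. Apart from the mir-26 genes, 90 counted genes had a RefSeq mature arm identical to that of another counted gene, and 38 of them (42.2%) were detected, with a median of 51.4 CPM. A further 925 counted genes had a RefSeq arm without such a copy, and 262 of them (28.3%) were detected, with a median of 160 CPM. Mir26a-2 was exceeded by 10 of the 90 genes with a copied arm and by 129 of the 925 without one. Mir26a-1 was exceeded by 32 of the 90 and by 233 of the 925. Few genes of either class exceeded Mir26b, 0 of the 90 and 17 of the 925. Reads that lie within a copied arm match several places, so the levels of the 90 are of assignable reads only. The highest gene with a copied arm stood at 1840 CPM.

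**Figure D4:**
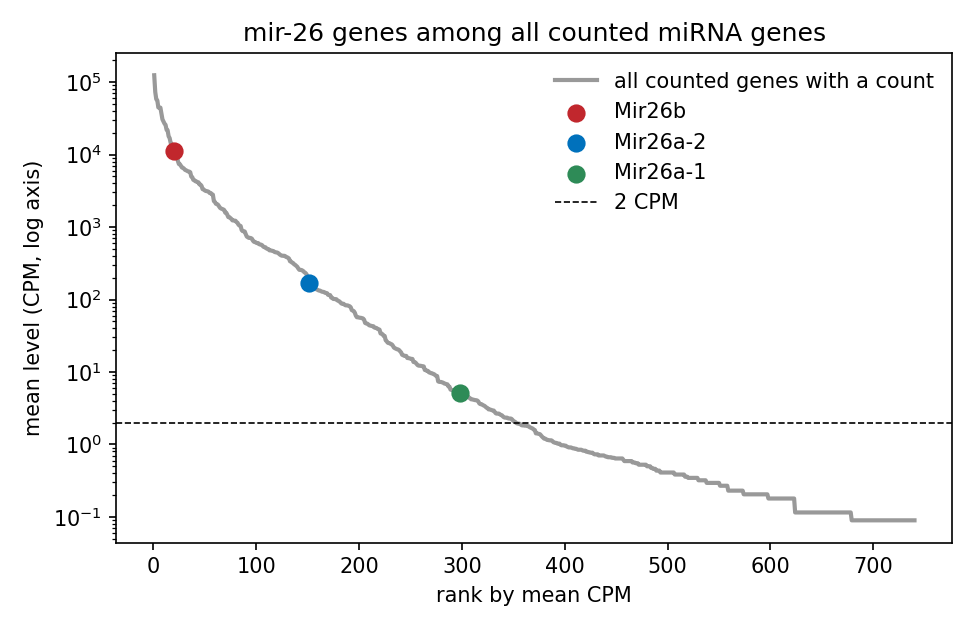
Mean CPM on a log axis against rank for all counted genes with at least 1 count, with the 3 mir-26 genes as coloured points and the 2 CPM detection level as a dashed line. Mir26b lies near the top at rank 20, Mir26a-2 in the middle at rank 151 and Mir26a-1 close to the detection level at rank 298.

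The genes closest to each member in log2(CPM + 0.5) over the 2 libraries were named by a fixed rule. Nearest to Mir26b was Mir22, a gene abundant in heart and skeletal muscle, at a distance of 0.21 log2 units, with 9086 CPM in library 2 and 11083 CPM in library 1. Mir382 of the imprinted Dlk1-Dio3 cluster followed at 0.21 and the Hox-cluster gene Mir196b at 0.34. Nearest to Mir26a-2 were Mir132 at 0.22, Mirlet7a-1 at 0.33 and Mir362 at 0.44. Nearest to Mir26a-1 were Mir133a-1 at 0.12, Mir6923 at 0.16 and Mir217 at 0.17. With only 2 libraries this measures mainly a like level of assignable reads, which are partial for any gene with a copied arm.

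Between the 2 libraries the assignable reads of Mir26b and Mir26a-2 went different ways. Reads that match both Mir26a genes are not among them, so the change of miR-26a-5p as a whole was not measured. The ratio of library 2 to library 1 was tested by an exact binomial test, two-sided, of each gene's counts against library totals scaled by TMM, adjusted by Benjamini-Hochberg over the 335 detected genes. It compares these libraries and no conditions. Of the 335 genes, 186 (55.5%) passed an adjusted p of 0.05, 96 higher in library 2 (28.7%) and 90 lower (26.9%), so a call was more common than none. Without a detection filter, which also moved the scaling, 740 genes were tested. Of these, 77 were higher and 118 lower, so in that setting a call was less common than none.

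Mir26b was lower in library 2, with a log2 ratio of -0.26 (-0.28 to -0.25) and an adjusted p of 3.72e-198 by the exact counting test. In linear terms library 2 had 0.832 times the scaled level of library 1. Of the 335 detected genes, 137 (40.9%) had a larger ratio in absolute size. The very small p came with the high count of Mir26b and a modest difference.

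Mir26a-2 was higher in library 2, with a log2 ratio of 0.68 (0.54 to 0.82) and an adjusted p of 7.75e-21 by the exact counting test, or 1.60-fold. Of the detected genes, 44 (13.1%) had a larger absolute ratio. Mir26a-1 had a log2 ratio of 0.22 (-0.64 to 1.08) and did not pass the exact test, with an adjusted p of 0.76. Its interval includes the ratios of both other members, so at this depth its direction was not detectable.

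**Figure D5:**
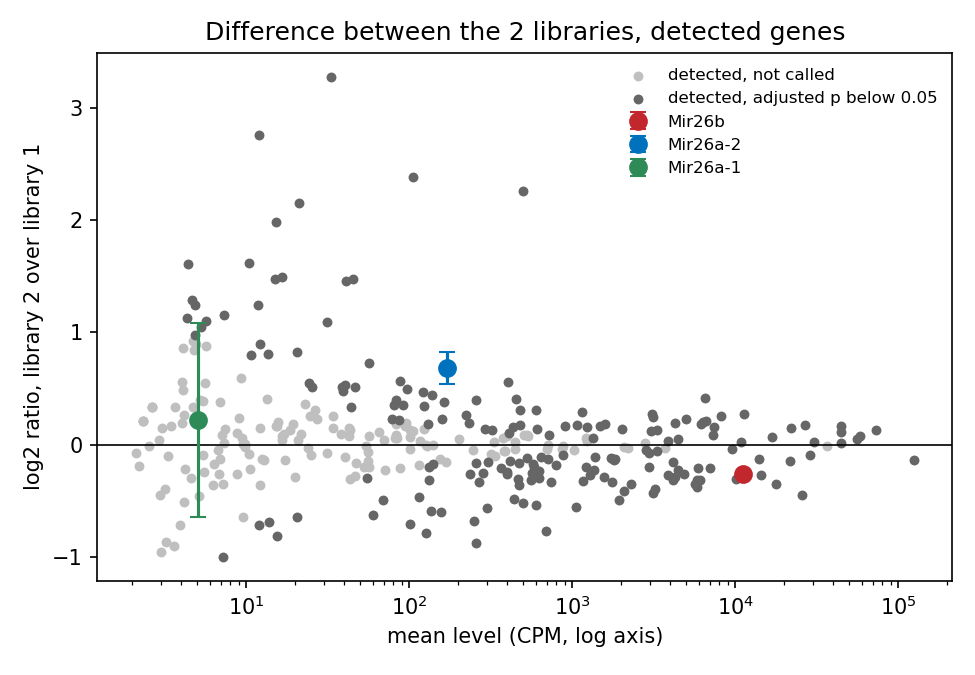
Log2 ratio of library 2 over library 1 against mean CPM on a log axis for the 335 detected genes, light grey where not called and dark grey where the adjusted p was below 0.05, with the mir-26 genes in colour and exact 95% counting intervals as bars. Mir26a-2 lies above 0 at 0.68, Mir26b lies below 0 at -0.26, and the interval of Mir26a-1 crosses 0.

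The difference between members in this ratio does not depend on the scaling, but it too covers assignable reads only. From the 2 by 2 table of counts, the log2 ratio of Mir26b minus that of Mir26a-2 was -0.95 (exact interval -1.09 to -0.80), which excludes 0. For Mir26b minus Mir26a-1 it was -0.49 (-1.35 to 0.38), and for Mir26a-2 minus Mir26a-1 it was 0.46 (-0.41 to 1.33), and both intervals include 0. The intervals cover counting error, and with 1 library per numbered female no spread between animals or preparations could be added. In a tissue library, fewer cells of a type and less of the RNA per cell cannot be told apart.

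Markers of muscle and of other cell types also differed between the libraries, beside the 55.5% of all detected genes that were called, and their part in the mir-26 ratios was not tested. Of the 5 skeletal muscle markers, 3 were lower in library 2, like Mir26b, with log2 ratios of -0.14 for Mir206, -0.33 for Mir499 and -0.60 for Mir208b. Of the other 2, Mir486 was higher at 0.22 and Mir133b did not pass the test, with a log2 ratio of 0.09. Also lower in library 2 were 4 of 5 detected leukocyte markers, whose sum was 652 CPM in library 2 and 1013 CPM in library 1. The endothelial gene Mir126a was lower as well, at 21931 CPM in library 2 and 29519 CPM in library 1. So were 2 of 4 detected connective tissue markers, with the list's sum at 4243 CPM in library 2 and at 5418 CPM in library 1. Higher in library 2, like Mir26a-2, were all 5 detected epithelial markers, with the list at 375 CPM in library 2 and 267 CPM in library 1. The 2 liver markers were split, with Mir122 higher at 824 CPM in library 2 and 169 CPM in library 1, and Mir192 lower at 9.22 CPM in library 2 and 14.9 CPM in library 1. The 2 smooth muscle markers were split as well. Mir143 was higher, at 28592 CPM in library 2 and 24964 CPM in library 1, and Mir145a was lower, at 508 CPM in library 2 and 545 CPM in library 1. Of the 2 erythroid markers, Mir451a was higher, at 95.0 CPM in library 2 and 71.1 CPM in library 1, and Mir144 did not pass the test. Of the 6 neural markers 0 were detected. Mir9-3 had 10 counts in library 2 and 0 in library 1, Mir9-1 had 3 in library 2 and 0 in library 1, and Mir124a-1 had 1 in library 2 and 0 in library 1, while Mir9-2, Mir124a-2 and Mir124a-3 had no count in either library.

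Other miRNAs known to repress Ezh2 formed a short list of 6 genes outside the family, of which 5 were detected. In library 2, 3 of them were lower and 2 were higher, with a median log2 ratio of -0.17 against 0.03 for all detected genes. In a list this short, the median is the value of Mir101b alone. Among all detected genes 55.5% were called, 28.7% higher and 26.9% lower. Mir214, transcribed from the opposite strand of the Dnm3 gene, was the highest at 2692 CPM in library 2 and 3563 CPM in library 1, with a log2 ratio of -0.43 (-0.46 to -0.39). Mir101b stood at 446 CPM in library 2 and 492 CPM in library 1, with a log2 ratio of -0.17, and Mir101a at 97.8 CPM in library 2 and 133 CPM in library 1, with -0.47. Mir138-1 and Mir138-2, which share a mature arm and so have assignable reads only in part, were higher in library 2, with intervals of 1.14 to 1.78 for Mir138-1 and 0.99 to 2.02 for Mir138-2. By mean level Mir26b stood above all 6. By its assignable reads alone, Mir26a-2 lay between Mir101b and Mir101a.

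A wider list of 17 miRNA genes known to promote muscle differentiation had 16 detected members. In library 2, 3 were higher, 6 were lower and 7 did not pass the test, with a median log2 ratio of -0.10. Called members thus made up a share close to the 55.5% called among all detected genes. The highest were Mir206, a gene of the skeletal muscle lineage, at 124329 ± 7080 CPM, Mir378a at 58024 ± 2753 CPM and Mir322 at 22057 ± 1806 CPM (SD, n = 2). By assignable reads these 3 stood above Mir26b, and Mir27b at 4139 ± 594 CPM was the next below it. A listed gene whose mature arm is copied at another locus is counted only in part, so its place in this order may be too low. Both lists were chosen with results of these libraries known.

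Pairing sites for the shared seed were looked for in the annotated 3′ untranslated regions of the hosts and of Ezh2, the known target named above. The site searched was TACTTGAA, the reverse complement of the seed followed by A, on the sense strand only, in the longest annotated 3′ untranslated region of each gene. It was in 880 of 21045 genes (4.18%). Ezh2, on its 402-base region, held 1 such site, shown with the site in capitals, at chr6:47530275-47530304 in mm10, minus strand.
Ezh2 site: tgaataaagaaTACTTGAActtgttgttga
Among genes with a region of similar length, 1.21% held the 8 bases. Ctdsp1 held 0 sites in 1701 bases, where 4.34% of genes with similar lengths held one. Ctdsp2 held 0 in 3489 bases, against 10.9% of such genes, and Ctdspl held 0 in 3349 bases, against 10.5%. The shorter match ACTTGA occurred at 2 places in Ctdsp2, where 67.9% of genes with similar lengths held it. It occurred at 0 places in Ctdsp1, against 41.1% of such genes, and at 0 in Ctdspl, against 66.7%. These are matches of letters in the annotated sequence, and the libraries measured neither binding nor messenger RNA.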

How the data were processed

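The authors deposited, for each of the 2 small RNA libraries, raw counts per gene on mm10, with release M21 as the annotation, per the text deposited with the files. The labels give a size range below 30, without a unit. No source used here names the aligner or counter. The 3 deposited count columns hold, by their sums, reads counted without strand, on the gene's own strand and on the opposite strand, and the own-strand column was used.

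The 4 lines that name no gene were left out of library sizes. In the own-strand column, multimapping reads made up 37.6% of library 2 and 36.9% of library 1, unmapped reads 9.26% of library 2 and 8.03% of library 1, reads in no feature 2.09% of library 2 and 1.70% of library 1, and ambiguous reads 0% in both.

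Library totals were scaled by TMM (edgeR 4.0.16, R 4.3.3). DESeq2 1.42.0 and unscaled totals served as alternatives. edgeR's own tests need replicated groups and were not run. Tests, intervals and sequence comparisons used Python 3.11.15, scipy 1.17.1, pandas 2.3.3, Biopython 1.88 and RNAfold 2.7.2, and figures matplotlib 3.10.9. The counting test was tested on simulated counts with known totals and counting error only. That setting cannot show how the test behaves where libraries differ by more than counting error. The pseudocount of 0.5 CPM was used only for the distance between genes. Named genes were the 3 members, the 3 genes nearest to each, the 3 highest of each list and all cell type markers with a stated value; Mir138-1, Mir138-2, Mir27b and Mir546 were added after their values were seen. The members and lists were chosen with earlier results of these data known. Alternatives were the unstranded column, all reads as denominator, each library alone, other scaling and filters, other window lengths and a 6-base site.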

Additional observations from a re-analysis of the deposited data

Results flagged for a closer look

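The line for reads that match several places, which no level in the report uses, held 3187607 reads in library 2 and 3842752 reads in library 1, far above the 3 counts that a count of 0 allows. It is not divided by gene, and its content for miR-26a-5p was not tested. The opposite-strand columns held 0 counts for Mir26b, Mir26a-2 and Mir26a-1 in both libraries.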

How the results depend on the processing

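The directions and calls of Mir26b and Mir26a-2 between the libraries kept their side of the threshold under DESeq2 size factors, plain totals, detection at 10 CPM, no detection filter and the unstranded column. Their log2 ratios ranged over -0.33 to -0.23 for Mir26b and 0.61 to 0.71 for Mir26a-2 in these alternatives. Mir26a-1 did not pass in any alternative that tested it, and at 10 CPM it was not tested. Counting without strand left the members' counts as they were but removed other genes from the total, which gave 5.81 CPM for Mir26a-1, 12705 CPM for Mir26b, a family share of 1.29% and ranks of 273 for Mir26a-1, 137 for Mir26a-2 and 18 for Mir26b. With all reads as denominator, Mir26a-1 was at 2.66 CPM, Mir26a-2 at 88.9 CPM, Mir26b at 5837 CPM and the family at 0.593%. With each library alone, the rank of Mir26a-2 was 148 to 163. With 25-base windows, 1.52% of Mir26a-1 and 1.67% of Mir26a-2 windows were in the other gene, against 5.80% and 6.35% at 22 bases. With the 6-base site, Ctdsp2 held 2 matches. No paired analysis was possible because there was 1 group. With 1 library left out no test between libraries can be made. Depth limits Mir26a-1 most, with 24 counts in library 2 and 26 in library 1.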

Other observations

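The 3p seed CUGUUCU of Mir26b and Mir26a-2 was also carried by a mature arm of Mir6932 and Mir7039 in the RefSeq table. Mir6932 had 3 counts in each library, and Mir7039 had 0 counts in both. The limit that 0 counts allow was 0.692 CPM for library 2 and 0.539 CPM for library 1. Both are named after their values were seen.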
